A study of Mus musculus with 14 samples.

Results

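Imprinted genes are transcribed mainly from the copy inherited from the mother or mainly from the copy inherited from the father, and 45 mouse genes of this kind, listed by symbol, were followed here in 4 RNA libraries. Of the 45 symbols, 35 had a row of their own in the deposited expression table of 13180 genes. Another 3, Meg3, Rian and Snrpn, stood in rows that carry their symbol run together with those of small RNA or overlapping genes. These 3 rows are given by value and not counted with the 35. The other 7 (Mirg, Rtl1, Usp29, Zim1, Asb4, Kcnq1 and Dhcr7os) had no row and were not analysed here. Of the 35, 14 are known as maternally expressed and 19 as paternally expressed in at least some mouse tissues, and Gnas and Blcap, whose transcripts differ in their imprinting, were kept apart as 2 others. The table gives total RNA per gene. The parental copy that each RNA came from was not measured, so the label rests on what is known of these genes and was not tested.

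The 4 poly(A) RNA libraries, 1 for each population, come from a mouse embryonic stem cell system with a green fluorescent protein reporter of Oct4, a transcription factor of pluripotent cells. DR-ESC are differentiation-resistant cells, sorted as GFP-positive on day 8 of neural differentiation in N2B27 medium and then grown further in embryonic stem cell medium. NPC(GFP-) are the neural progenitors, sorted as GFP-negative from the same kind of day 8 culture. Oct4-GFP-H-ESC, from culture with LIF (10 ng/ml), were sorted from the Oct4-GFP cells for a high GFP signal. Oct4-GFP-ESC are the embryonic stem cells as cultured, in serum with LIF (10 ng/ml) on fibroblast feeder cells treated with mitomycin C. The series as described also holds 8 histone mark ChIP-seq libraries and 2 input libraries, which were not analysed here. With 1 library for each population no difference has a replicate check, and no test was made. A gene is called higher or lower where log2((FPKM + 1) ratio) reached 1 or -1, a 2-fold size. Genes had to reach 1 FPKM in one or both libraries to be compared. FPKM counts fragments per unit of transcript length and sequencing depth, so levels may be set beside each other between genes. The added 1 shrinks the ratios of low genes.

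Imprinting mostly rests on DNA methylation that is laid down in the egg or sperm at control regions and kept through the cell divisions of the embryo. Many control regions govern a cluster, often with a noncoding RNA and protein-coding genes expressed from opposite parental chromosomes. Many paternally expressed genes favour growth and many maternally expressed genes restrain it. Mouse embryonic stem cells are known to lose or gain imprints in culture, and several of these genes are strongly used in the developing brain.

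The pluripotency and neural progenitor markers followed the labels of the libraries, while NPC(GFP-) also carried RNA of other cell types. Of 10 pluripotency markers, the number under 1 FPKM was 0 in DR-ESC, 7 in NPC(GFP-), 0 in Oct4-GFP-H-ESC and 0 in Oct4-GFP-ESC. The median FPKM of 10 neural progenitor markers was 6.66 in DR-ESC, 53.0 in NPC(GFP-), 0.305 in Oct4-GFP-H-ESC and 1.12 in Oct4-GFP-ESC. The sums of neuron and visceral endoderm markers were also highest in NPC(GFP-). Tubb3, at 342 FPKM, made up most of the neuron sum there. Stmn2 was instead highest in Oct4-GFP-ESC, at 117 FPKM, against 59 in NPC(GFP-). The summed FPKM of 5 neuron markers was 51.6 in DR-ESC, 484 in NPC(GFP-), 69.9 in Oct4-GFP-H-ESC, and 168 for Oct4-GFP-ESC. That of 5 visceral endoderm markers was 13.6 in DR-ESC, 68.3 in NPC(GFP-), 15.7 in Oct4-GFP-H-ESC, and 25.7 for Oct4-GFP-ESC, with Gata4 at 39 FPKM and Gata6 at 15.7 FPKM in NPC(GFP-). Fibroblast RNA separated the libraries in another way. Of 15 fibroblast markers, 8 were under 1 FPKM in DR-ESC and 7 in NPC(GFP-), against 0 in Oct4-GFP-H-ESC and 0 in Oct4-GFP-ESC. Their median was 0.927 FPKM in DR-ESC and 1.51 in NPC(GFP-), against 15.6 in Oct4-GFP-H-ESC and 14.1 in Oct4-GFP-ESC. Their summed FPKM, most of it from Sparc and Fn1, was 382 in DR-ESC, 1090 in NPC(GFP-), 827 in Oct4-GFP-H-ESC and 917 in Oct4-GFP-ESC, and S100a4 was listed at 0 in DR-ESC and NPC(GFP-). Several imprinted genes are known to be active in fibroblasts, so these values stand beside every difference from the 2 stem cell libraries below. The part that feeder RNA has in those differences was not tested. In such bulk libraries fewer cells of a type and less RNA per cell cannot be told apart.

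The 35 genes spanned a wide range of levels. Their median was 12.3 FPKM in DR-ESC, 21.2 in NPC(GFP-), 11.5 in Oct4-GFP-H-ESC and 15.3 in Oct4-GFP-ESC, where the median of all genes was 7.66, 8.51, 7.27 and 8.70 FPKM in the same 4 libraries. The maternally expressed genes had higher median levels than the paternally expressed ones in each library: 20.4 against 5.40 FPKM in DR-ESC, 21.7 against 12 in NPC(GFP-), 19 against 7.17 in Oct4-GFP-H-ESC and 22.5 against 7.10 in Oct4-GFP-ESC. Gnas, which encodes the stimulatory G protein alpha subunit and several imprinted variants, was the most abundant of the 35 in DR-ESC and Oct4-GFP-ESC. Nnat led in NPC(GFP-) and Cd81, a tetraspanin of the cell surface, in Oct4-GFP-H-ESC. Of the 35 genes, 3 had their highest value in DR-ESC, 21 in NPC(GFP-), 4 in Oct4-GFP-H-ESC and 7 in Oct4-GFP-ESC, while the shares of all genes were 10.9%, 36.1%, 8.58% and 44.4% in the same order of libraries.

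**Figure D1:**
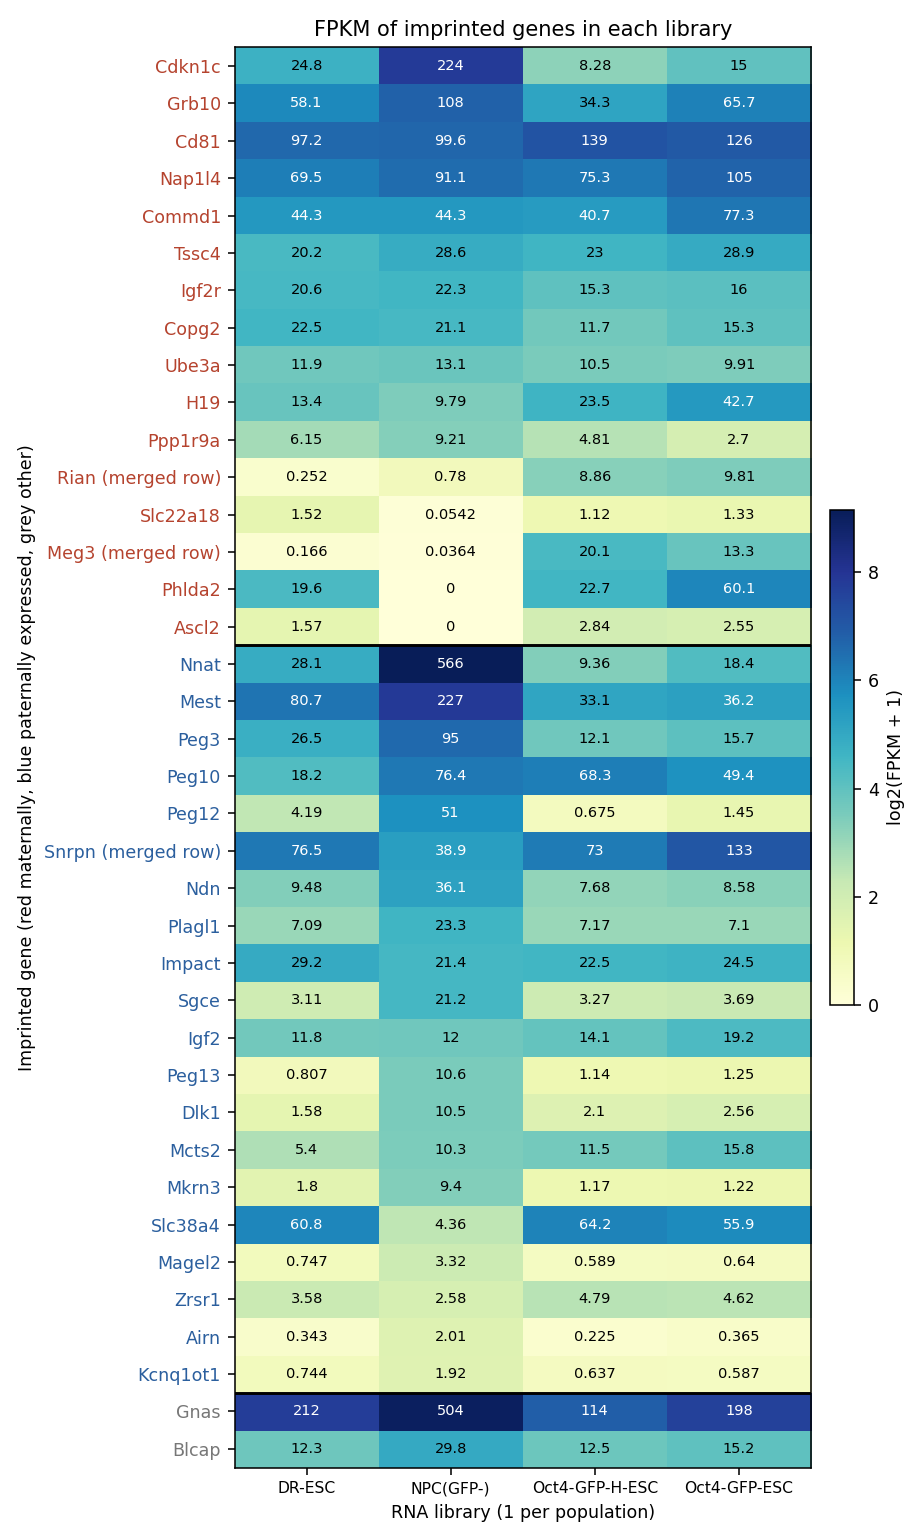
FPKM of the 35 imprinted genes and the 3 merged rows (rows of the plot) in the 4 RNA libraries (columns), with the value printed in each cell and log2(FPKM + 1) as colour. The blue, paternally expressed block is darkest in NPC(GFP-), where Nnat had 566 FPKM, while the Meg3 and Rian rows are pale in DR-ESC and NPC(GFP-).

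The maternally expressed noncoding RNAs of the chromosome 12 cluster showed the widest gap between DR-ESC and both stem cell libraries. In this cluster Meg3 and Rian are long noncoding RNAs of the maternal chromosome, and Dlk1, which encodes a membrane protein related to Notch ligands, is expressed from the paternal one. In RefSeq on GRCm38.p6, Dlk1 lies at 109452485 to 109463336, Meg3 at 109540996 to 109571729 and Rian at 109603945 to 109661716 of chromosome 12. The Meg3 row had 0.166 FPKM in DR-ESC, 0.0364 in NPC(GFP-), 20.1 in Oct4-GFP-H-ESC and 13.3 in Oct4-GFP-ESC. The Rian row had 0.252 FPKM in DR-ESC, 0.780 in NPC(GFP-), 8.86 in Oct4-GFP-H-ESC and 9.81 in Oct4-GFP-ESC. Both rows were thus under 1 FPKM in the 2 populations that came out of neural differentiation and well expressed in the 2 that did not.

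The log2 ratio of the Meg3 row in DR-ESC was -4.18 against Oct4-GFP-H-ESC and -3.62 against Oct4-GFP-ESC. That of the Rian row was -2.98 and -3.11 against the same 2 libraries. The sizes depend on the pseudocount, with -6.25 for the Meg3 row and -4.67 for the Rian row against Oct4-GFP-H-ESC at a pseudocount of 0.1 FPKM, and -2.28 and -1.40 at a pseudocount of 5. Both stayed past the 2-fold size in every setting tried. The fibroblast markers moved with these rows, as given above, and 12 of the 15 were lower in DR-ESC when set against Oct4-GFP-H-ESC. In NPC(GFP-) the log2 ratio to Oct4-GFP-H-ESC was -4.35 for the Meg3 row and -2.47 for the Rian row. The Meg3 row also names Mir770, a microRNA within Meg3 on chromosome 12, and Mir1906-2, which the RefSeq table places on chromosome X. The Rian row also names AF357359, which lies within Rian.

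The protein-coding neighbours had other patterns. Dlk1 had 1.58 FPKM in DR-ESC, 10.5 in NPC(GFP-), 2.10 in Oct4-GFP-H-ESC and 2.56 in Oct4-GFP-ESC. It was higher in NPC(GFP-), with a log2 ratio to Oct4-GFP-H-ESC of 1.89, and differed by less than 2-fold among the 3 GFP-positive or unsorted stem cell libraries. Dio3, a thyroid hormone deiodinase at the far end of the cluster and not among the 45, had 3.71 FPKM in DR-ESC, 0.190 in NPC(GFP-), 10.1 in Oct4-GFP-H-ESC and 1.04 in Oct4-GFP-ESC. In DR-ESC Dio3 was therefore lower relative to Oct4-GFP-H-ESC (-1.24) but higher relative to Oct4-GFP-ESC (1.21).

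**Figure D2:**
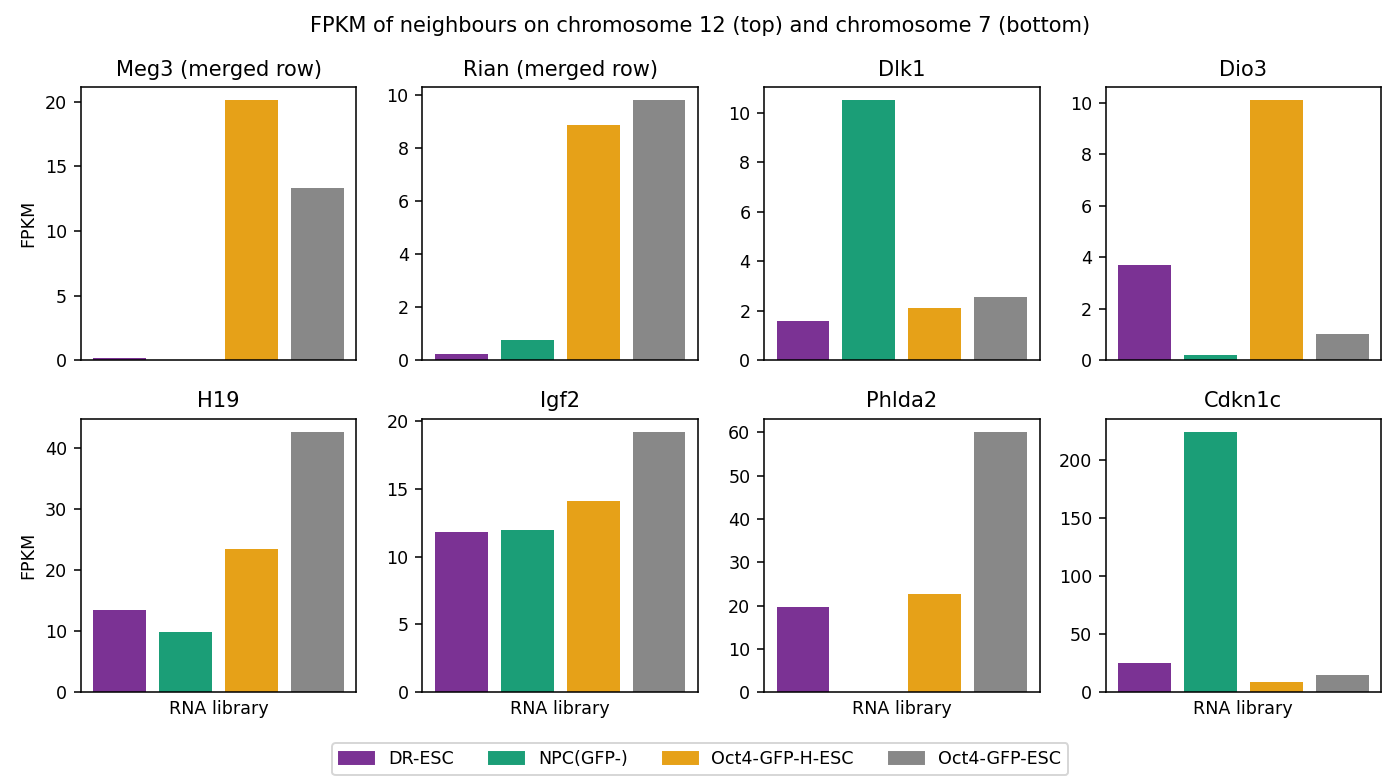
FPKM (linear axis from 0, own scale in each panel) of 4 neighbours on chromosome 12 and 4 genes of distal chromosome 7, 1 bar per library. The Meg3 row stands at 20.1 and 13.3 in Oct4-GFP-H-ESC and Oct4-GFP-ESC and at 0.166 and 0.0364 in DR-ESC and NPC(GFP-), while Cdkn1c peaks at 224 in NPC(GFP-).

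Promoter sequences are shown for Meg3, whose row differed most in DR-ESC, and for 4 paternally expressed genes that were higher in DR-ESC relative to Oct4-GFP-H-ESC. ZFP57, a zinc finger protein that keeps methylation at imprinted control regions, is known to bind the methylated 6-base motif TGCCGC, and the capitals mark this motif on either strand (GCGGCA on the other). The sequences are from RefSeq in build GRCm38.p6, run from 250 bases before to 50 bases after a start site, and are written 5′ to 3′ on the strand of the gene.
Meg3 (chr12:109540746-109541045, plus strand): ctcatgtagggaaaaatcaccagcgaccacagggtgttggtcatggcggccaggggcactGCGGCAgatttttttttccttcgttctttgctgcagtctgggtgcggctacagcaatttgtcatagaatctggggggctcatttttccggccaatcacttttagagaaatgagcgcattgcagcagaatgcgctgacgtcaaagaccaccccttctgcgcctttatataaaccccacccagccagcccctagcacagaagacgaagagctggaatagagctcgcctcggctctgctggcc
Nnat (chr2:157559828-157560127, plus strand): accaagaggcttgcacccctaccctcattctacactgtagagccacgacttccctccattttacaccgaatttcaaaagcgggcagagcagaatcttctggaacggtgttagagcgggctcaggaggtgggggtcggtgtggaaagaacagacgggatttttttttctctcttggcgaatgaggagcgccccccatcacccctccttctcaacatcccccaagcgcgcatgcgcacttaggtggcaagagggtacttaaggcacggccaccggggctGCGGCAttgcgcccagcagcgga
Mest (chr6:30737800-30738099, plus strand, a downstream start site): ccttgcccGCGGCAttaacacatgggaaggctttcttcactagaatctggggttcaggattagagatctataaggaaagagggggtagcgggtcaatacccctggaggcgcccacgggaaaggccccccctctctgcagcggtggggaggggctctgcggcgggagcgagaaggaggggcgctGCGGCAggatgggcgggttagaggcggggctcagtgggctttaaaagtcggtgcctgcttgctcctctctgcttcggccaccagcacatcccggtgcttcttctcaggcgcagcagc
Peg3 (chr7:6730370-6730669, minus strand): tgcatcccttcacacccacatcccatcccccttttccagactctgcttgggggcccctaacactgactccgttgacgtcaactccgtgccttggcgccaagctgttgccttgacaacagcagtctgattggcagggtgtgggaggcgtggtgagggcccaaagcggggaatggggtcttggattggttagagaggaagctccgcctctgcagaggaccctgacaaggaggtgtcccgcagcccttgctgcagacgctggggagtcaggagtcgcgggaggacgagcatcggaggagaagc
Peg12 (chr7:62464461-62464760, minus strand): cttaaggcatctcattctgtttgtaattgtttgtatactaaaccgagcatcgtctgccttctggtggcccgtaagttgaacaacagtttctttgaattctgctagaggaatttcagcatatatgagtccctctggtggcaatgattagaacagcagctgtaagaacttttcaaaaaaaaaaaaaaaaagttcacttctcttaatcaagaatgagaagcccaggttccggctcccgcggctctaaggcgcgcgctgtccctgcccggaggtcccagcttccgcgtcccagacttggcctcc
The Meg3 and Nnat windows hold 1 copy each, that of Mest holds 2, and those of Peg3 and Peg12 hold 0. For Meg3 and Mest the printed window is one that holds the motif. A second Meg3 window (chr12:109545148-109545447, 1 CpG) and the upstream Mest window (chr6:30733256-30733555, 8 CpG) hold 0 copies, and a further Mest window (chr6:30737803-30738102) holds 2. Of 31 listed genes with a row and a promoter entry, 10 (32.3%) hold the motif in at least 1 window, where 2102 of 9222 genes of the table with an entry (22.8%) do. The 31 include Meg3, Rian and Snrpn, of which Meg3 and Snrpn hold the motif, while merged rows could not enter the 9222. The number of windows per gene was not matched, so the 2 shares are not strictly alike. A match is a run of letters and not a measured binding site. The printed windows hold between 12 and 17 CpG dinucleotides, at which methylation would lie.

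DR-ESC against Oct4-GFP-H-ESC compares the differentiation-resistant cells with stem cells that were also sorted on the reporter. Of the 35 genes 32 could be compared. In DR-ESC 5 were higher (15.6%), where 3.65% of all genes were, and 1 was lower (3.12%), where 3.91% of all genes were. The 5 were Peg12, Nnat, Cdkn1c, Mest and Peg3, of which Peg12 was under 1 FPKM in Oct4-GFP-H-ESC and was compared through its level in DR-ESC. The median log2 ratio of the 32 was 0.05, beside 0.00 (-0.0044 before rounding) for all genes. It was 0.14 for the 14 maternally expressed genes and -0.04 for the 16 paternally expressed genes compared, the second turning to 0.01 with the median ratio set to 0 and to 0.08 with equal sums. With the abundance trend removed, which is described with the next comparison, 6 were higher and 2 lower, where 3.24% and 4.18% of all genes were; Gnas joined the higher and Mcts2 the lower.

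The higher genes had the following values. Nnat, neuronatin, a small membrane protein of neural and endocrine cells, had 28.1 FPKM in DR-ESC, 566 in NPC(GFP-), 9.36 in Oct4-GFP-H-ESC and 18.4 in Oct4-GFP-ESC. Cdkn1c, which encodes the cell cycle inhibitor p57, had 24.8 FPKM in DR-ESC, 224 in NPC(GFP-), 8.28 in Oct4-GFP-H-ESC and 15.0 in Oct4-GFP-ESC. Mest, a paternally expressed gene of the hydrolase fold family, had 80.7 FPKM in DR-ESC, 227 in NPC(GFP-), 33.1 in Oct4-GFP-H-ESC and 36.2 in Oct4-GFP-ESC. Nnat lies on chromosome 2 (157560078 to 157562525), Cdkn1c on chromosome 7 (143458339 to 143461059) and Mest on chromosome 6 (30733506 to 30748466). All 3 were in the same order, lowest in Oct4-GFP-H-ESC and highest in NPC(GFP-), with DR-ESC second.

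Peg3, a zinc finger protein, had 26.5 FPKM in DR-ESC, 95 in NPC(GFP-), 12.1 in Oct4-GFP-H-ESC and 15.7 in Oct4-GFP-ESC. Peg12, a relative of the GSK3-binding FRAT proteins, had 4.19 FPKM in DR-ESC, 51.0 in NPC(GFP-), 0.675 in Oct4-GFP-H-ESC and 1.45 in Oct4-GFP-ESC. The log2 ratios of DR-ESC to Oct4-GFP-H-ESC were 1.49 for Nnat, 1.48 for Cdkn1c, 1.26 for Mest, 1.07 for Peg3 and 1.63 for Peg12. With a pseudocount of 5 FPKM Peg3 (0.88) and Peg12 (0.695) were inside the 2-fold size. Each of the 5 was far higher in NPC(GFP-) than in DR-ESC, and 6 of 7 neural progenitor markers that could be compared were also higher in DR-ESC relative to Oct4-GFP-H-ESC. The part of neural RNA in these differences was not tested.

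Peg10, a gene derived from a retrotransposon and needed for the placenta, was the gene that was lower. It lies at 4747306 to 4760517 of chromosome 6. It had 18.2 FPKM in DR-ESC, 76.4 in NPC(GFP-), 68.3 in Oct4-GFP-H-ESC and 49.4 in Oct4-GFP-ESC, so DR-ESC was the low library among the 4 (log2 ratio -1.85 against Oct4-GFP-H-ESC). Its neighbour Sgce, which encodes epsilon-sarcoglycan and shares its control region, did not follow, with 3.11 FPKM in DR-ESC, 21.2 in NPC(GFP-), 3.27 in Oct4-GFP-H-ESC and 3.69 in Oct4-GFP-ESC. Ppp1r9a, which encodes the actin-binding protein neurabin and lies in the same region, had 6.15 FPKM in DR-ESC, 9.21 in NPC(GFP-), 4.81 in Oct4-GFP-H-ESC and 2.70 in Oct4-GFP-ESC.

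**Figure D3:**
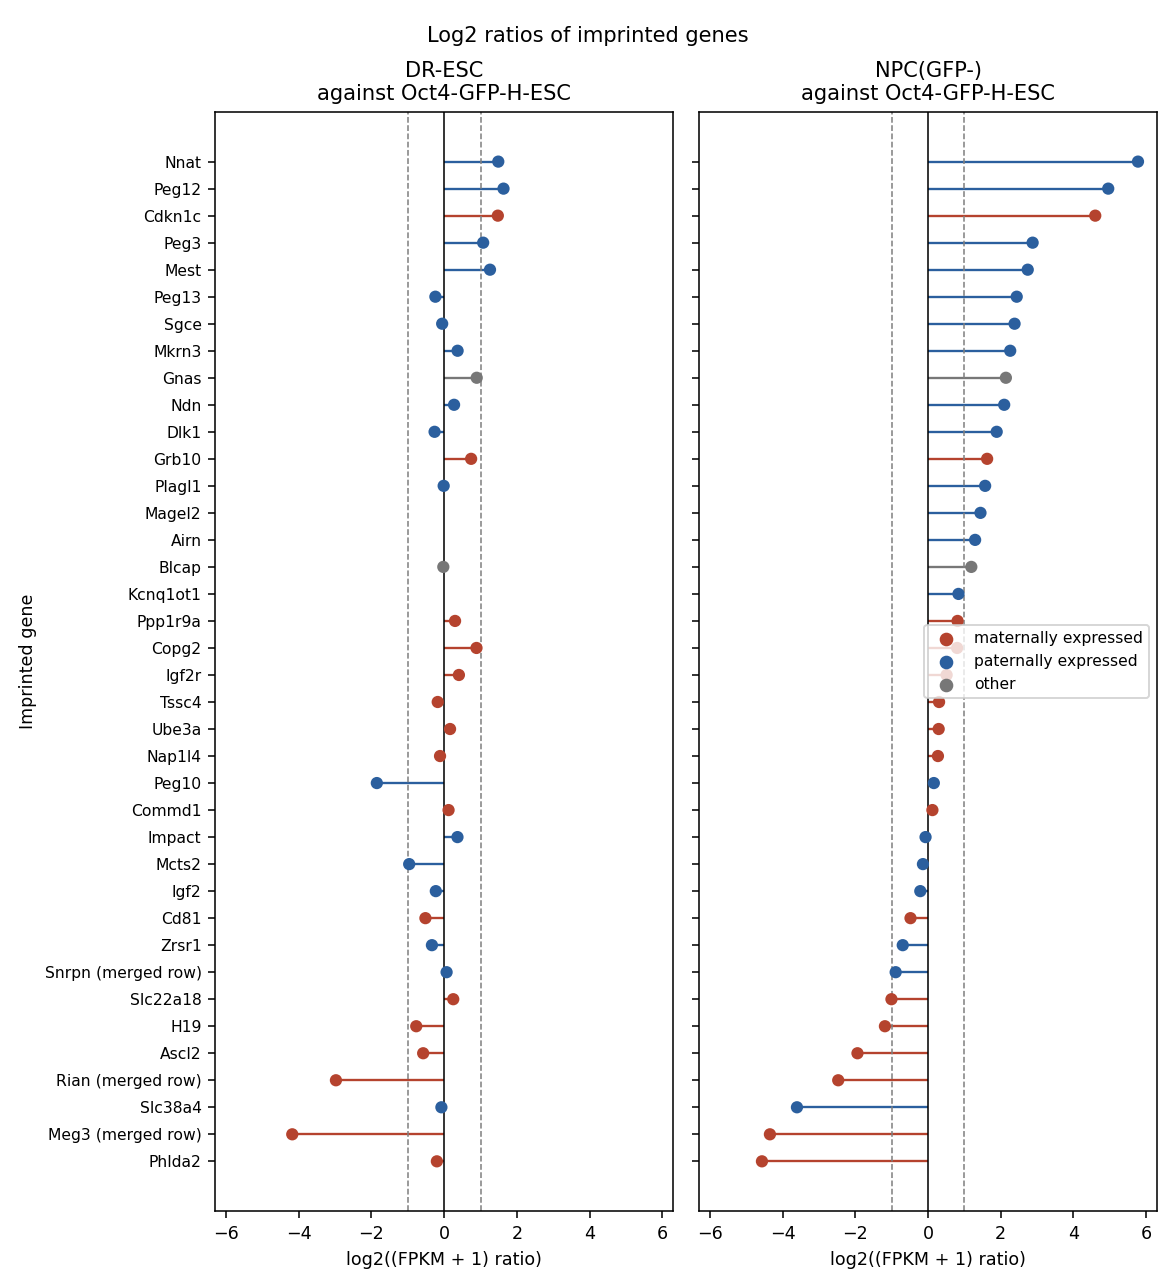
Log2((FPKM + 1) ratio) of DR-ESC (left) and NPC(GFP-) (right) to Oct4-GFP-H-ESC for each imprinted gene, coloured by the parental copy known to be expressed, with dashed lines at the 2-fold size; genes under 1 FPKM in both libraries have no point. Both panels share the Oct4-GFP-H-ESC library; Nnat lies at 1.49 on the left and 5.77 on the right, and the Meg3 row at -4.18 and -4.35.

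The resistant cells were next set against Oct4-GFP-ESC, the line they came from. Here 2 of 32 genes were higher in DR-ESC (6.25%), where 2.95% of all genes were, and 4 were lower (12.5%), where 12.2% of all genes were. The share lower was thus close to that of all genes. Mest (log2 ratio 1.14) and Peg12 (1.08) were higher. H19 (-1.60), Phlda2 (-1.57), Peg10 (-1.39) and Mcts2 (-1.39) were lower. The log2 ratio in this comparison ran with abundance, with abundant genes lower in DR-ESC, and the median of all genes was -0.29. With that trend removed 6 of the 32 were higher (Mest, Peg3, Peg12, Gnas, Cdkn1c and Nnat) and 2 lower (Mcts2 and H19), beside 4.71% and 4.56% of all genes. With equal sums of FPKM 9 were higher and 0 lower. No share of all genes is given for that setting, so the 9 are not read as a result about these genes. The 4 lower calls were all lost with equal sums but differed in the other scalings. H19 stayed lower with the median ratio set to 0 (-1.18) and with the trend removed (-1.11). Phlda2 did so only with the median ratio set to 0 (-1.15), Mcts2 only with the trend removed (-1.18), and Peg10 in neither. The median of all genes moved to 0.13 when the median over expressed genes was set to 0 and to 0.39 with equal sums of FPKM. The median of the maternally expressed genes was -0.27 as deposited but 0.15, 0.50 and 0.32 with the median set to 0, equal sums and the trend removed. That of the paternally expressed genes was 0.06 as deposited and 0.48, 0.75 and 0.22 in those settings.

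**Figure D4:**
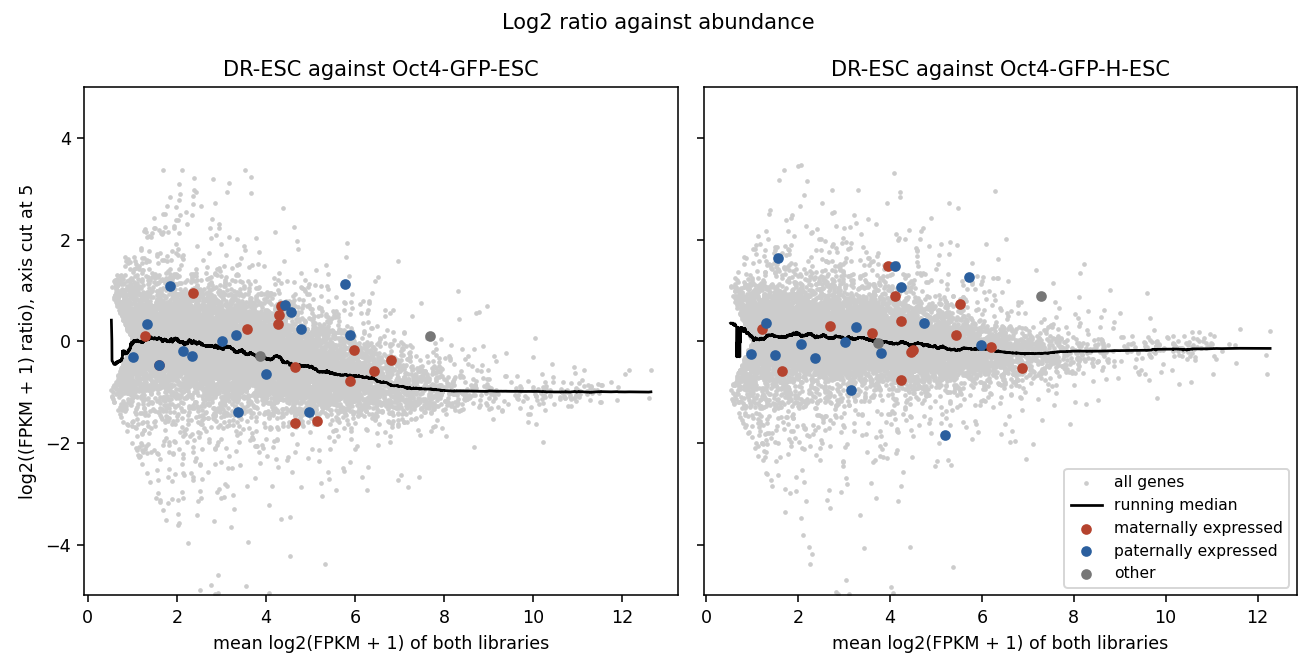
Log2((FPKM + 1) ratio) of DR-ESC to Oct4-GFP-ESC (left) and to Oct4-GFP-H-ESC (right) against the mean log2(FPKM + 1) of both libraries, with all genes in grey, imprinted genes in colour and a running median over neighbouring genes in black. The axis leaves out 9 genes on the left and 7 on the right; the running median falls with abundance on the left, where Mest (1.14) lies above it and H19 (-1.60) below it.

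Among the lower genes, H19, a maternally expressed long noncoding RNA, had 13.4 FPKM in DR-ESC, 9.79 in NPC(GFP-), 23.5 in Oct4-GFP-H-ESC and 42.7 in Oct4-GFP-ESC. Igf2, the paternally expressed growth factor that shares its control region, had 11.8 FPKM in DR-ESC, 12 in NPC(GFP-), 14.1 in Oct4-GFP-H-ESC and 19.2 in Oct4-GFP-ESC. They lie on chromosome 7, H19 at 142575530 to 142578146 and Igf2 at 142650768 to 142666816. Both genes were highest in Oct4-GFP-ESC, and the spread of H19 over the libraries was the wider. Igf2 stayed within the 2-fold size in all 5 comparisons. Igf2r, whose product removes IGF2 from the cell surface, was level, with 20.6 FPKM in DR-ESC, 22.3 in NPC(GFP-), 15.3 in Oct4-GFP-H-ESC and 16.0 in Oct4-GFP-ESC. Airn, the noncoding RNA antisense to Igf2r, had 0.343 FPKM in DR-ESC, 2.01 in NPC(GFP-), 0.225 in Oct4-GFP-H-ESC and 0.365 in Oct4-GFP-ESC. The 2 overlap on opposite strands of chromosome 17, and use of the read strand is not stated, so reads of the pair cannot be told apart.

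Mcts2, a copy of the Mcts1 gene inserted within H13, had 5.40 FPKM in DR-ESC, 10.3 in NPC(GFP-), 11.5 in Oct4-GFP-H-ESC and 15.8 in Oct4-GFP-ESC. Reads of its parent gene or of H13 could be counted with it, so its value is uncertain. H13 itself had 15.3 FPKM in DR-ESC, 21.9 in NPC(GFP-), 17.3 in Oct4-GFP-H-ESC and 20.2 in Oct4-GFP-ESC. Zrsr1, an inserted copy within Commd1, carries the same limit and stayed within the 2-fold size as deposited, at 3.58 FPKM in DR-ESC, 2.58 in NPC(GFP-), 4.79 in Oct4-GFP-H-ESC and 4.62 in Oct4-GFP-ESC.

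The distal chromosome 7 cluster under the noncoding RNA Kcnq1ot1 was uneven. Phlda2, which limits placental growth, had 19.6 FPKM in DR-ESC, was listed at 0 in NPC(GFP-), and had 22.7 in Oct4-GFP-H-ESC and 60.1 in Oct4-GFP-ESC. Ascl2, a transcription factor of the trophoblast, had 1.57 FPKM in DR-ESC, was listed at 0 in NPC(GFP-), and had 2.84 in Oct4-GFP-H-ESC and 2.55 in Oct4-GFP-ESC. Slc22a18, a transporter, had 1.52 FPKM in DR-ESC, 0.0542 in NPC(GFP-), 1.12 in Oct4-GFP-H-ESC and 1.33 in Oct4-GFP-ESC. These 3 maternally expressed genes were thus near or at 0 in NPC(GFP-), where Cdkn1c, their maternally expressed neighbour, had its highest level. In DR-ESC all 5 trophoblast markers that could be compared were lower relative to Oct4-GFP-ESC, where Phlda2 was lower too (-1.57); their part was not tested. Relative to Oct4-GFP-H-ESC 4 of the 5 were lower, while Phlda2 stayed within the 2-fold size (-0.20). Kcnq1ot1 had 0.744 FPKM in DR-ESC, 1.92 in NPC(GFP-), 0.637 in Oct4-GFP-H-ESC and 0.587 in Oct4-GFP-ESC. The outer genes of the cluster, Cd81, Tssc4 and Nap1l4, stayed within the 2-fold size in all 5 comparisons, with 97.2, 20.2 and 69.5 FPKM in DR-ESC.

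Setting Oct4-GFP-H-ESC beside Oct4-GFP-ESC compares stem cells sorted for a high reporter signal with unsorted ones. Of 32 genes 0 were higher (0.983% of all genes were) and 1, Phlda2, was lower (3.12%, where 2.67% of all genes were), with a log2 ratio of -1.37. With the abundance trend removed Phlda2 was at -0.87 and Peg10 at 1.03, which made 1 gene higher and 0 lower, where 1.78% and 0.558% of all genes were. Grb10, an adaptor that restrains insulin receptor signalling, was just inside the 2-fold size, with 34.3 FPKM in Oct4-GFP-H-ESC against 65.7 in Oct4-GFP-ESC (-0.92). Commd1 (-0.91), Nnat (-0.90), H19 (-0.83), Gnas (-0.80) and Cdkn1c (-0.79) were also near that size. Of the 32 genes 24 had a negative log2 ratio and 8 a positive one, where 9291 of 12003 genes had a negative one. Nnat and Cdkn1c, called higher in DR-ESC relative to Oct4-GFP-H-ESC, were at 0.58 and 0.69 relative to Oct4-GFP-ESC. The imprinted genes thus mostly stayed within the 2-fold size between these 2 libraries, as did most genes.

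NPC(GFP-) against Oct4-GFP-H-ESC compares neural progenitors with sorted stem cells, and here the medians of the parental classes lay apart. All 35 genes could be compared. In NPC(GFP-) 16 were higher (45.7%), where 18.5% of all genes were, and 5 lower (14.3%), where 16.2% of all genes were. Of the 19 paternally expressed genes 12 were higher (63.2%) and 1 lower, with a median log2 ratio of 1.57. Of the 14 maternally expressed genes 2, Cdkn1c and Grb10, were higher (14.3%) and 4 lower (28.6%), with a median of 0.28. The lower call of Slc22a18 (-1.01) was lost with the median set to 0 (-0.93), equal sums (-0.91) and a pseudocount of 5 (-0.28). It was also lost with the abundance trend removed (-0.02), which left 3 of the 14 lower (21.4%), where 15.3% of all genes were. The median of all genes was 0.03. The medians of the classes kept this order in every setting tried, from 1.12 to 2.27 for the paternally and from 0.24 to 0.61 for the maternally expressed genes.

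The way in which genes entered the comparison bears on these counts. Airn, Magel2, Peg12 and Kcnq1ot1, all paternally expressed, reached 1 FPKM in NPC(GFP-) but not in Oct4-GFP-H-ESC, and Phlda2, Ascl2 and Slc22a18, all maternally expressed, the other way round. Airn, Magel2 and Kcnq1ot1 were above 1 FPKM in no library other than NPC(GFP-), so they could enter the table through it alone. Among the 28 genes that reached 1 FPKM in NPC(GFP-) and in Oct4-GFP-H-ESC, 9 of 15 paternally expressed genes were higher and 1 lower (median 1.89), and 2 of 11 maternally expressed genes were higher and 1 lower (median 0.30). Among all genes that did so, 14.8% were higher and 10.9% lower. No test of the difference between the classes was made. Markers of other cell types differed in the same comparison: in NPC(GFP-) 10 of 10 neural progenitor, 4 of 5 neuron and 5 of 5 visceral endoderm markers were higher and 10 of 15 fibroblast markers lower. Their part in the class medians was not tested.

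**Figure D5:**
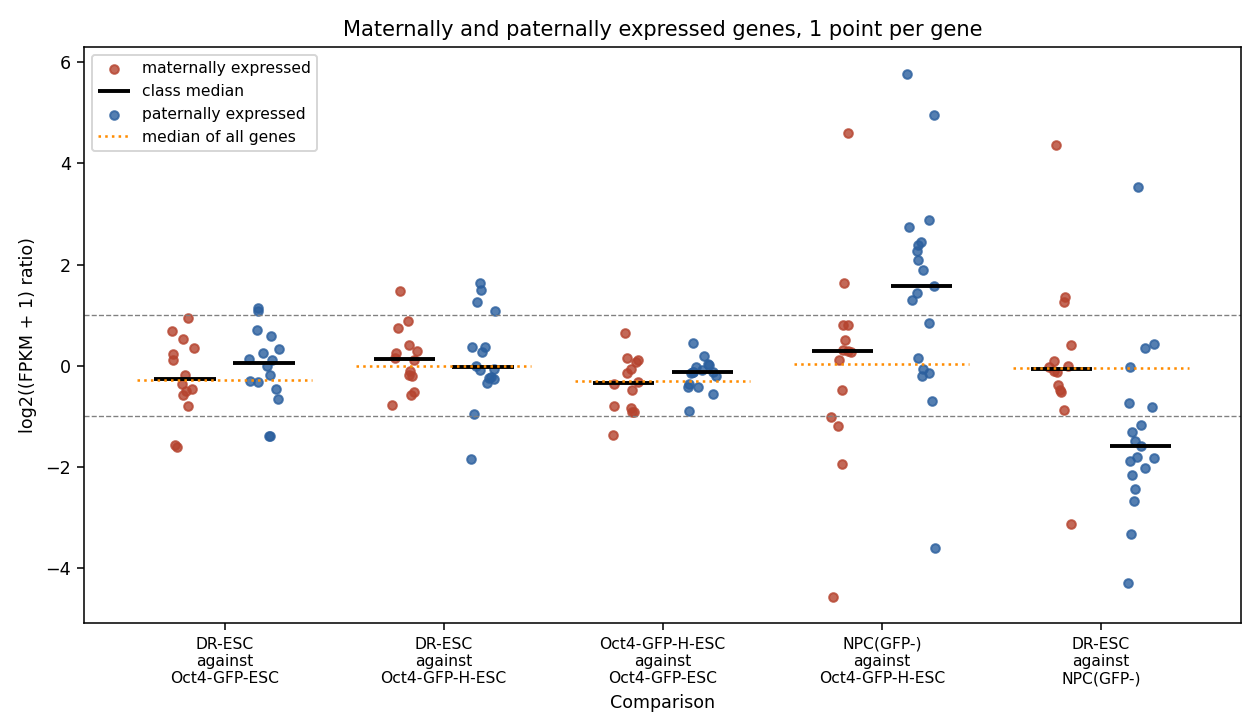
Log2((FPKM + 1) ratio) of the maternally and paternally expressed genes in the 5 comparisons, 1 point per gene, with the class median as a black bar, the median of all genes as a dotted line and dashed lines at the 2-fold size. The class medians lie close together in the first 3 comparisons and apart in those with NPC(GFP-), at 0.28 and 1.57 against Oct4-GFP-H-ESC and at -0.07 and -1.59 for DR-ESC against NPC(GFP-).

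The paternally expressed genes that were higher in NPC(GFP-) came from several clusters. In the Snrpn cluster of chromosome 7, which is linked to Prader-Willi syndrome in humans, Ndn, a MAGE family protein of neurons, had 9.48 FPKM in DR-ESC, 36.1 in NPC(GFP-), 7.68 in Oct4-GFP-H-ESC and 8.58 in Oct4-GFP-ESC. Its relative Magel2 had 0.747 FPKM in DR-ESC, 3.32 in NPC(GFP-), 0.589 in Oct4-GFP-H-ESC and 0.640 in Oct4-GFP-ESC. Mkrn3, a ubiquitin ligase, had 1.8 FPKM in DR-ESC, 9.4 in NPC(GFP-), 1.17 in Oct4-GFP-H-ESC and 1.22 in Oct4-GFP-ESC. With Peg12 these made 4 genes of the cluster that were higher in NPC(GFP-). The merged row of Snrpn, Snurf and Snord64 went the other way, with 76.5 FPKM in DR-ESC, 38.9 in NPC(GFP-), 73.0 in Oct4-GFP-H-ESC and 133 in Oct4-GFP-ESC, a log2 ratio of -0.89 in NPC(GFP-). Ube3a, the ubiquitin ligase at the cluster's edge that is imprinted in neurons, was level, at 11.9 FPKM in DR-ESC, 13.1 in NPC(GFP-), 10.5 in Oct4-GFP-H-ESC and 9.91 in Oct4-GFP-ESC.

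Plagl1, a zinc finger transcription factor known to regulate other imprinted genes, had 7.09 FPKM in DR-ESC, 23.3 in NPC(GFP-), 7.17 in Oct4-GFP-H-ESC and 7.10 in Oct4-GFP-ESC. The 3 stem cell libraries were nearly equal and NPC(GFP-) stood above them. Peg13, a noncoding RNA, had the same shape, with 0.807 FPKM in DR-ESC, 10.6 in NPC(GFP-), 1.14 in Oct4-GFP-H-ESC and 1.25 in Oct4-GFP-ESC. Gnas, of the other class, had 212 FPKM in DR-ESC, 504 in NPC(GFP-), 114 in Oct4-GFP-H-ESC and 198 in Oct4-GFP-ESC. Blcap, whose span on chromosome 2 contains Nnat, had 12.3 FPKM in DR-ESC, 29.8 in NPC(GFP-), 12.5 in Oct4-GFP-H-ESC and 15.2 in Oct4-GFP-ESC. Its ratio of NPC(GFP-) to Oct4-GFP-H-ESC (log2 ratio 1.19) was small beside that of Nnat (5.77), and reads of the pair may not have been told apart.

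A single paternally expressed gene was lower in NPC(GFP-) as deposited, and Zrsr1 joined it with the abundance trend removed. Slc38a4, an amino acid transporter, had 60.8 FPKM in DR-ESC, 4.36 in NPC(GFP-), 64.2 in Oct4-GFP-H-ESC and 55.9 in Oct4-GFP-ESC, so it was level in the 3 stem cell libraries. On the maternally expressed side Grb10 had 58.1 FPKM in DR-ESC, 108 in NPC(GFP-), 34.3 in Oct4-GFP-H-ESC and 65.7 in Oct4-GFP-ESC. Grb10 is paternally expressed in neurons. Copg2, a coat protein subunit whose end overlaps Mest, had 22.5 FPKM in DR-ESC, 21.1 in NPC(GFP-), 11.7 in Oct4-GFP-H-ESC and 15.3 in Oct4-GFP-ESC, and stayed within the 2-fold size. Impact, a regulator of translation, was also level, between 21.4 FPKM in NPC(GFP-) and 29.2 in DR-ESC. Commd1 had 44.3 FPKM in DR-ESC, 44.3 in NPC(GFP-), 40.7 in Oct4-GFP-H-ESC and 77.3 in Oct4-GFP-ESC.

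DR-ESC against NPC(GFP-) compares the GFP-positive and GFP-negative products of neural differentiation. The DR-ESC were grown further in embryonic stem cell medium after the sort, so sorted fraction and later culture cannot be told apart. In DR-ESC 4 of the 35 genes were higher (11.4%), where 11.6% of all genes were, and 16 were lower (45.7%), where 14.2% of all genes were. The 4 were Phlda2, Slc38a4, Ascl2 and Slc22a18, of which Phlda2 and Ascl2 are listed at 0 in NPC(GFP-) and are given no fold. With the abundance trend removed Ascl2 and Slc22a18 were inside the 2-fold size and Grb10 (-1.03) joined the lower. That made 2 higher and 17 lower, where 11.6% and 13.4% of all genes were. All 5 visceral endoderm markers and 9 of 10 neural progenitor markers were lower in DR-ESC here; their part was not tested. As deposited, 13 of the 19 paternally expressed genes were lower and 1 higher (median -1.59). Of the 14 maternally expressed genes 1 was lower and 3 higher (median -0.07), where the median of all genes was -0.05. With the trend removed 2 of the 14 were lower and 1 higher, while the counts of the 19 stayed at 13 lower and 1 higher. Among genes that reached 1 FPKM in both libraries, 10 of 15 paternally expressed genes were lower and 1 higher and 1 of 11 maternally expressed genes was lower and 0 higher, where 11.3% of all genes were lower and 6.68% higher. Nnat (-4.29), Peg12 (-3.32) and Cdkn1c (-3.12) had the lowest ratios. This comparison shares NPC(GFP-) with the one before it and is not independent of it. The Meg3 and Rian rows, under 1 FPKM in both libraries, were not compared.

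The proteins that keep or erase imprints were read from a list of 22 genes, all in the table. In DR-ESC 1 was higher and 2 lower relative to Oct4-GFP-H-ESC, where 3.65% and 3.91% of all genes were, and the median log2 ratio was -0.10. The 2 lower were Zfp57, at 71.9 FPKM in DR-ESC, 34.3 in NPC(GFP-), 186 in Oct4-GFP-H-ESC and 169 in Oct4-GFP-ESC, and Dnmt3l, a cofactor of DNA methylation in germ cells, at 54.6 FPKM in DR-ESC, 0.841 in NPC(GFP-), 277 in Oct4-GFP-H-ESC and 220 in Oct4-GFP-ESC. Dppa3, which protects maternal methylation in the zygote, was higher, at 23.2 FPKM in DR-ESC, 0.0577 in NPC(GFP-), 10.4 in Oct4-GFP-H-ESC and 27.4 in Oct4-GFP-ESC. Against Oct4-GFP-ESC 0 were higher and 5 lower in DR-ESC (Dnmt3l, Eed, Zfp57, Ehmt2 and Trim28), where 2.95% and 12.2% of all genes were. With the abundance trend removed 0 were higher and 1, Dnmt3l, was lower, where 4.71% and 4.56% of all genes were. Dnmt1, which copies methylation at each cell division, was level, at 65.9 FPKM in DR-ESC, 74.6 in NPC(GFP-), 71.8 in Oct4-GFP-H-ESC and 82.8 in Oct4-GFP-ESC. In NPC(GFP-) 8 of the 22 were lower and 1, Tet3, a demethylating enzyme, was higher, relative to Oct4-GFP-H-ESC, where 16.2% of all genes were lower and 18.5% higher.

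A second list of 32 further imprinted genes had 19 in the table. Against Oct4-GFP-H-ESC 17 could be compared, of which 2 were higher in DR-ESC (Dhcr7 and Atp10a) and 3 lower (Cobl, Dio3 and Tfpi2), where 3.65% and 3.91% of all genes were, with a median log2 ratio of -0.16. Against Oct4-GFP-ESC 2 were higher (Dio3 and Dhcr7) and 2 lower (Tfpi2 and Cobl), where 2.95% and 12.2% of all genes were, with a median of -0.37. Dhcr7, an enzyme of the last step of cholesterol synthesis, had 39.5 FPKM in DR-ESC, 34.7 in NPC(GFP-), 9.01 in Oct4-GFP-H-ESC and 18.7 in Oct4-GFP-ESC. In NPC(GFP-) 5 of 19 were higher and 8 lower relative to Oct4-GFP-H-ESC, where 18.5% and 16.2% of all genes were, with a median of 0.32. With the abundance trend removed 5 were higher and 6 lower, where 17% and 15.3% of all genes were. Removing it also made 3 higher and 1 lower in DR-ESC relative to Oct4-GFP-ESC, where 4.71% and 4.56% of all genes were. Cobl was then at -0.68 and Zdbf2 at 1.07. Relative to Oct4-GFP-H-ESC it left Atp10a at 0.965, inside the 2-fold size.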

How the data were processed

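The authors deposited 1 log2 value per gene and library, named as normalised FPKM; 2 to the power of a value minus 1 was used as FPKM, since 99.7% of non-zero values then had at most 6 significant digits. Per the submitters' processing notes, the build was mm10 and the tools included Bowtie 0.12.8, TopHat2 2.0.9, CASAVA 1.8, DESeq2 and HTSeq, with no role or order, and the program that gave FPKM is not given in the sources used here. Each row has at least 1 library above 1 FPKM. Of 13199 rows, 19 with symbols turned into dates were left out. FPKM carries no read counts, so depth is unknown; among 162 genes under 0.12 FPKM the commonest ratio of Oct4-GFP-H-ESC to Oct4-GFP-ESC was 0.81 (26 genes), and no such step was clear for the other libraries.

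Columns were matched to samples by title. The members, parental classes, lists and comparisons were chosen with earlier results of these data known. The classes come from general knowledge of mouse imprinting. All 35 members with a row are given by value, beside the 3 merged rows; genes outside the list come from the fixed lists. Alternatives were pseudocounts of 0.1 and 5, no minimum or 5 FPKM, a 4-fold size, 2 scalings and removal of the abundance trend. The scalings set to 0 the median ratio over genes that reached 5 FPKM in each of the 2 libraries, or gave equal sums. The trend was a running median along genes ordered by abundance. Counting the merged rows as members was added after seeing the data. The code was tested on simulated data. The code used pandas 2.3.3, numpy 2.4.6 and matplotlib 3.10.9 under Python 3.11.15.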

Additional observations from a re-analysis of the deposited data

How the results depend on the processing

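No paired analysis was possible because each population has 1 library, and for the same reason no replicate could be left out. Of 410 values of single genes past the 2-fold size under the alternatives, 379 stayed past it, 31 fell short of it and 0 changed direction. Part of this was fixed in advance. The minimum only selects genes, so the 60 values with no minimum and the 50 with a minimum of 5 FPKM could not change. Genes that the minimum of 5 FPKM left out are not among the 410. A pseudocount of 0.1 can only widen a ratio, so its 60 values could not fall short either. All 70 class medians under the alternatives stayed on their side of the 2-fold size. For medians near 0 this says little, since a change of sign still counts as staying. In DR-ESC against Oct4-GFP-ESC the median of the maternally expressed genes went from -0.27 to 0.15 with the median ratio set to 0. Shifts in the counts of imprinted genes that were small relative to the count are not all listed. Among these, in DR-ESC against Oct4-GFP-ESC, a pseudocount of 0.1 gave 3 higher and a pseudocount of 5 gave 3 lower. Counting the merged rows there gave 6 lower. Equal sums gave 7 higher in DR-ESC against Oct4-GFP-H-ESC. A pseudocount of 5 gave 13 higher in NPC(GFP-) against Oct4-GFP-H-ESC. The larger shifts were the following. In DR-ESC against Oct4-GFP-ESC, with 2 higher and 4 lower, the number higher was 1 with a pseudocount of 5 and with a minimum of 5 FPKM. There the numbers higher and lower were 6 and 2 with the median ratio set to 0, 9 and 0 with equal sums, 6 and 2 with the abundance trend removed, and 0 and 0 at a 4-fold size. In DR-ESC against Oct4-GFP-H-ESC, with 5 higher and 1 lower, the number higher was 3 with a pseudocount of 5. The number lower was 2 with a pseudocount of 0.1 and with the trend removed, and 3 with the merged rows counted; at a 4-fold size both numbers were 0. For Oct4-GFP-H-ESC set against Oct4-GFP-ESC, with 0 higher and 1 lower, the number lower was 2 with a pseudocount of 0.1 and 0 at a 4-fold size. The numbers higher and lower were 1 and 0 with the median ratio set to 0, 2 and 0 with equal sums, and 1 and 0 with the trend removed. In NPC(GFP-) against Oct4-GFP-H-ESC, with 16 higher and 5 lower, the number lower was 2 with a pseudocount of 5, 3 with a minimum of 5 FPKM and 3 with equal sums, and at a 4-fold size the numbers were 10 and 2. In DR-ESC against NPC(GFP-), with 4 higher and 16 lower, the number higher was 2 with a pseudocount of 5, with a minimum of 5 FPKM and with the trend removed, and at a 4-fold size the numbers were 2 and 7. A stricter minimum tests fewer genes, and the cause of the other shifts was not tested. The shares of all genes move with the setting too. In DR-ESC against Oct4-GFP-ESC they were 2.95% higher and 12.2% lower as deposited, and 4.71% and 4.56% with the trend removed. For the other settings no share of all genes is given, so these shifts are not read as results about imprinted genes. The unknown depth limits genes near 1 FPKM, such as Airn, Magel2, Kcnq1ot1 and Slc22a18.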
